A study of Mus musculus with 8 samples.

Results

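Cytosolic ribosomal protein genes were examined in bulk RNA-seq libraries of ILC3s, the group 3 innate lymphoid cells, from the mouse large intestine. The genes were taken by symbol, as every row of the gene table named Rpl, Rps or Rplp with a number and an optional suffix, plus Rpsa, without S6 kinases, mitochondrial ribosomal proteins and pseudogenes. This gave 85 genes of 27179 rows, 53 of the large subunit and 32 of the small one. A further 2 matching symbols, Rpl6l and Rps4l, were left out because RefSeq lists them as pseudogenes. ILC3s are tissue-resident lymphocytes that make interleukin 22, and the sorted cells, from C57BL/6 mice at steady state, bore the chemokine receptor CCR6. In the Zbtb46 KO group (Zbtb46f/f with a Cre recombinase transgene, 4 mice, replicates 5 to 8) Cre acted on floxed copies of Zbtb46, which encodes a zinc finger transcription factor. The wild-type group (Zbtb46f/f, 4 mice, replicates 1 to 4) carried the same floxed copies, and its genotype lists no Cre. Each library came from 1 mouse, and mouse ages were not stated.

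Ribosomal proteins assemble with ribosomal RNA in the nucleolus into a small subunit, which reads the mRNA, and a large subunit, which joins amino acids. Because a ribosome holds nearly all of them in equal number, their genes are usually transcribed at similar, high rates. Their mRNAs typically begin with a run of pyrimidines, the TOP motif, through which the kinase mTORC1 and the RNA-binding protein Larp1 set how much of each is translated. Several members have close relatives in the genome, both expressed paralogs and many silent processed pseudogenes.

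Library totals ran from 25328231 to 33760743 counts, so a count of 0 allowed up to 0.0889 to 0.118 counts per 1000000 (CPM), by counting error alone. Zbtb46 itself had 4.82, 0.532, 3.19 and 0.125 CPM in KO replicates 5 to 8, against 8.02, 48.8, 88.9 and 26.6 CPM in wild-type replicates 1 to 4 (TMM-scaled, as for all single genes), and values of single libraries are given in that order of replicates throughout. KO replicate 6 lay at 172 on the first principal component of all tested genes, with the other 7 libraries from -59.0 to -7.92, and wild-type replicate 1 lay at 159 on the second, with the others from -44.1 to 31.7. The ILC3 marker list was present in all libraries, with summed levels of 23722 to 29500.0 CPM in KO and 25190.2 to 34467 CPM in wild-type ILC3s.

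The 85 genes together took 0.818% to 1.31% of all counts in KO libraries and 0.833% to 1.35% in wild-type ones, and the gap between the group means was smaller than the spread between mice. Their summed level, as CPM of the library total, was 9806, 8181, 13129.9 and 10741 CPM in KO libraries, against 13522, 10043, 13365 and 8331 CPM in wild-type ones. The lowest libraries were KO replicate 6 and wild-type replicate 4, and the ranges of the genotypes overlapped over most of their length. Means were 10464 ± 2068 CPM in KO and 11315 ± 2556 CPM in wild-type ILC3s (SD, n = 4 each), a ratio of 0.925. Genes of the large subunit summed to 4740.3 ± 962 CPM in KO and 5261 ± 1244 CPM in wild-type ILC3s. Those of the small subunit summed to 5724 ± 1111 CPM in KO and 6054 ± 1312 CPM in wild-type ILC3s. The ratio of the large to the small sum was more even between mice than either sum, at 0.862, 0.796, 0.831 and 0.819 in KO libraries, against 0.880, 0.850, 0.884 and 0.849 in wild-type ones. The 2 ranges of this ratio overlapped. In bulk RNA, less RNA per cell and fewer cells of a type cannot be told apart. Genes encoded by mitochondrial DNA summed to 16296, 14851, 28444 and 19919.8 CPM in KO libraries, against 20138, 15698, 25118 and 13314 CPM in wild-type ones. This sum was also lowest in KO replicate 6 and wild-type replicate 4, and highest among KO libraries in replicate 7, as for the ribosomal proteins, and its part in the ribosomal protein sums was not tested.

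**Figure D1:**
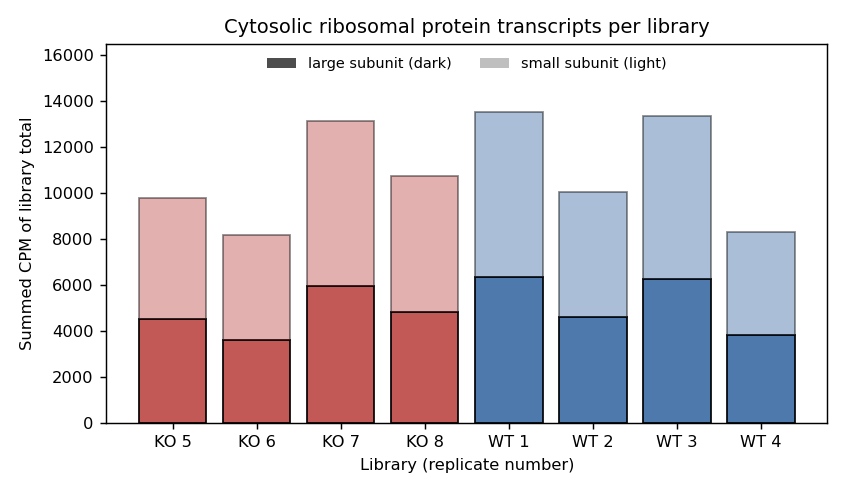
Summed CPM of library total (vertical axis) of cytosolic ribosomal protein genes in each library, with the KO libraries in red and the wild-type ones in blue, stacked as large subunit (dark) and small subunit (light). KO libraries spanned 8181 to 13129.9 CPM over all 85 genes, beside a wild-type span of 8331 to 13522 CPM.

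The measured levels within the set were far from equal. Of the 85 genes, 69 had a mean over all libraries of at least 10 CPM, 33 of at least 100 CPM and 2, Rps14 and Rps27l, of at least 1000 CPM, with a median of 50.4 CPM. These 2 genes held 25.4% of the CPM of the set and the top 10 held 50.5%. Per kb of coding sequence, high mean levels were 4727 CPM per kb for Rps27l, 3507 for Rpl41 and 3472 for Rps14, then 1142 for Rplp1 and 917 for Rpl34, against a median of 119 over the 84 members with an annotated coding sequence. Rpl41, which encodes the smallest ribosomal protein, has a coding sequence of 78 bases in an mRNA of 437 bases, so its level per coding kb also counts reads from outside that stretch. At the low end, Rpl3l, the striated muscle paralog of Rpl3, had 2 counts over all 8 libraries, Rpl10l, the germ cell paralog of Rpl10, had 5, and Rpl32l had 38. These 3 genes were under 1 CPM in every library and did not pass the filter on low counts, which the other 82 passed.

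The Rps14 gene (chromosome 18, 60774596 to 60778546, build GRCm38.p6 for all coordinates) encodes a small-subunit protein whose human gene lies in a segment lost in a form of myelodysplastic syndrome. Rps14 had 1176, 1016, 1774 and 1581 CPM in KO libraries, against 2066, 1671, 2134 and 1249 CPM in wild-type ones. Wild-type replicates 1 and 3 were highest and KO replicate 6 lowest, and the groups overlapped (1387 ± 351 CPM in KO and 1779.9 ± 409 CPM in wild-type ILC3s, SD, n = 4 each, log2 fold -0.36, SE 0.24). Rpl41 had 198, 225, 319 and 257 CPM in KO libraries, against 374, 246, 366 and 203 CPM in wild-type ones. KO replicate 5 was the lowest and wild-type replicates 1 and 3 the highest, with overlap elsewhere (log2 fold -0.25, SE 0.28). Rpl34, of the large subunit, averaged 278 ± 66.1 CPM in KO and 371 ± 115 CPM in wild-type ILC3s (log2 fold -0.42, SE 0.28).

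**Figure D2:**
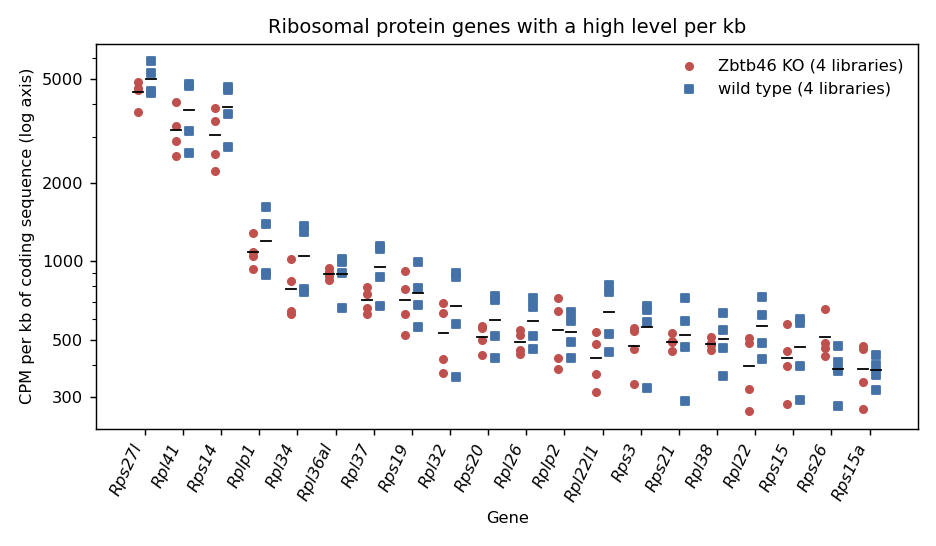
Level per kb of coding sequence (CPM per kb, log axis) of 20 members with high levels, with 1 point per library for Zbtb46 KO and for wild type and a bar at each group mean. The order starts with Rps27l, at means of 4443 in KO and 5011 in wild-type ILC3s, and the points of both genotypes overlap for the genes shown.

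Members whose coding sequence is repeated elsewhere in the genome had lower measured levels. For each member, the share of 50-base stretches of its coding sequence that occur in no other annotated gene was counted on either strand (GENCODE M21, GRCm38). In 27 members no stretch was unique, and their median level was 25.4 CPM per kb, from 2.07 for Rpl13 to 3507 for Rpl41. In 32 members up to 20% was unique, with a median of 126 CPM per kb, in 9 members 20% to 50%, with a median of 447, and in 16 members over 50%, with a median of 331. The members with no unique stretch shared sequence with a median of 12 annotated pseudogenes, and those over 50% with a median of 1.5. Spearman's correlation of the unique share with the level per kb was 0.57 across the 84 genes and 0.69 without Rpl3l and Rpl10l, given as a description of genes that share their libraries. As examples, Rpl13, Rpl21, Rpl17 and Rpl7a, all of the large subunit, matched 15, 81, 50 and 120 pseudogenes. Their mean levels were 2.07, 27.7, 21.6 and 20.3 CPM per kb. Rpl29 and Rps2, which matched 81 and 71 pseudogenes, had higher levels of 49.3 and 57.1 CPM per kb. How reads that match several genes were counted was not stated in the sources, and its part in these levels was not tested. Levels of members with little unique sequence are therefore uncertain, and so is the order of levels between genes.

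**Figure D3:**
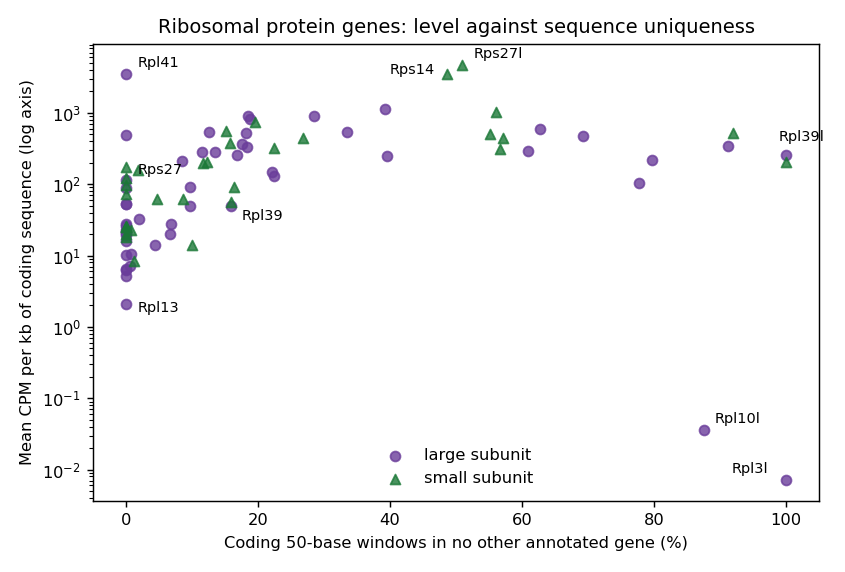
Level per kb of coding sequence (CPM per kb, log axis, mean of 8 libraries) against the percent of 50-base coding stretches found in no other annotated gene, 1 point per member (n = 84). Points with no unique stretch have a median of 25.4 CPM per kb, and points over 50% a median of 331.

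The paralogs give a view of the set through genes that differ in sequence. Rps27l, a paralog of the zinc finger protein gene Rps27 known in human cells as a target of p53, lies on chromosome 9, 66944624 to 66949522, and Rps27 on chromosome 3, 90212667 to 90213648. The coding sequences are shown because they show how far reads of the pair can be told apart: both are 255 bases, 61 bases differ (capitals) and the longest stretch they share is 11 bases. Of the Rps27l stretches 51.0% were found in no other gene, and of the Rps27 stretches 0%. The sequences are those of GENCODE M21, from start to stop codon.
Rps27l: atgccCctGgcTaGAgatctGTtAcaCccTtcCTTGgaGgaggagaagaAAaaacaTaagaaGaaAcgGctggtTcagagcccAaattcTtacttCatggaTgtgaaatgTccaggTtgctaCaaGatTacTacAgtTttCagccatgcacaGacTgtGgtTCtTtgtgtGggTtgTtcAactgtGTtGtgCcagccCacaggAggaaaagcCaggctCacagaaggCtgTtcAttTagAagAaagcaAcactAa
Rps27: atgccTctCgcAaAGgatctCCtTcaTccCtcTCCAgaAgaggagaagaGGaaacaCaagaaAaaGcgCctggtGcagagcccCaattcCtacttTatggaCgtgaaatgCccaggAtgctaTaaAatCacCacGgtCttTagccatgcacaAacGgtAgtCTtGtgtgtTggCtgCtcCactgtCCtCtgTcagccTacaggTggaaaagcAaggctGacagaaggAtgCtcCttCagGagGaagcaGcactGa

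Rps27l had 949.8, 1155, 1243 and 1183 CPM in KO libraries, against 1349, 1144, 1490.1 and 1127 CPM in wild-type ones. KO replicate 5 was the lowest and wild-type replicate 3 the highest, with overlap between (1133 ± 127 CPM in KO and 1278 ± 174 CPM in wild-type ILC3s, SD, n = 4 each, log2 fold -0.17, SE 0.18). Rps27 had 14.9, 22.9, 26.4 and 9.92 CPM in KO libraries, against 97.7, 21.1, 33.4 and 24.4 CPM in wild-type ones, with wild-type replicate 1 far above the other 7 libraries. The counts of Rps27l over those of Rps27 were 63.8, 50.5, 47.1 and 119 in KO libraries, against 13.8, 54.2, 44.6 and 46.1 in wild-type ones, so in these counts the paralog exceeded its parent in all 8 libraries. With no unique stretch in Rps27, its level and this ratio are uncertain.

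Rpl39l, the paralog of Rpl39 known in mice for its role in male germ cells, had the smallest p of all members and lies on chromosome 16, 10170197 to 10174911, while Rpl39 lies on chromosome X, 37082518 to 37085222. Their coding sequences, of 156 bases each, differ at 23 bases (capitals) and share a longest stretch of 38 bases. Of the Rpl39l stretches 100% were unique, and of the Rpl39 stretches 15.9%.
Rpl39l: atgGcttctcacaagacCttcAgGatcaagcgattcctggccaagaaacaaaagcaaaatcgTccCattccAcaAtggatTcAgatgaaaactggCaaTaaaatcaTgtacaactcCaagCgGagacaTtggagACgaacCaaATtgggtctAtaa
Rpl39: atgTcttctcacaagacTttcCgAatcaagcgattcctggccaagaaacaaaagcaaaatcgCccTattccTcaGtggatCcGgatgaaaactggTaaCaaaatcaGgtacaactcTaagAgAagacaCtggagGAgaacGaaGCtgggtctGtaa

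Rpl39l had 16.6, 21.4, 33.7 and 17.1 CPM in KO libraries, against 95.2, 42.1, 56.5 and 33.6 CPM in wild-type ones. KO libraries lay at the bottom, and KO replicate 7 just overlapped wild-type replicate 4. Means were 22.2 ± 7.93 CPM in KO and 56.8 ± 27.3 CPM in wild-type ILC3s (SD, n = 4 each, log2 fold -1.36, SE 0.65), with an unadjusted p of 0.0651 and an adjusted p of 1.00 by edgeR's quasi-likelihood test over 8878 genes. The counts of Rpl39l over Rpl39 were 2.96, 2.302, 4.89 and 1.82 in KO libraries, against 11.7, 5.19, 5.78 and 6.37 in wild-type ones, the only one of the 5 paralog ratios computed in which the groups did not overlap. This ratio was looked at after the values were seen and was not tested, and Rpl39 itself had log2 fold -0.00, SE 1.12. Rpl39 averaged 7.81 ± 1.87 CPM in KO and 7.82 ± 1.87 CPM in wild-type ILC3s. With this low level and a unique share of 15.9% for Rpl39, the ratio is uncertain. Among single genes, the groups failed to overlap in 4.36% of all those tested.

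Rpl22 is an RNA-binding large-subunit protein needed for the development of αβ T cells in mice, and its paralog Rpl22l1 can replace it in the ribosome. Rpl22l1 had 136, 116, 177 and 198 CPM in KO libraries, against 281, 165, 299 and 194 CPM in wild-type ones. Rpl22 had 125, 103, 187 and 197 CPM in KO libraries, against 241, 187, 283 and 163 CPM in wild-type ones. Both were lowest in KO replicates 5 and 6 and highest in wild-type replicates 1 and 3, and both overlapped between the groups (log2 fold -0.58, SE 0.30 for Rpl22l1 and log2 fold -0.52, SE 0.31 for Rpl22). The ratio of Rpl22l1 to Rpl22 counts stayed between 0.947 and 1.13 in KO and between 0.883 and 1.19 in wild-type libraries. Rpl36al averaged 287 ± 12.8 CPM in KO and 287 ± 52.3 CPM in wild-type ILC3s and its parent Rpl36a 8.10 ± 2.96 CPM in KO and 4.50 ± 1.23 CPM in wild-type ILC3s. Rpl36a had no unique stretch, so the gap between this parent and its paralog is uncertain. Rpl7l1, the paralog of Rpl7, had 118, 79.1, 27.0 and 31.1 CPM in KO libraries, against 102, 86.9, 58.8 and 110.4 CPM in wild-type ones, a wide spread within both groups (log2 fold -0.49, SE 0.55). Its parent Rpl7 averaged 103 ± 28.8 CPM in KO and 108 ± 28.2 CPM in wild-type ILC3s, Rpl3 16.4 ± 7.46 CPM in KO and 17.3 ± 8.77 CPM in wild-type ILC3s, Rpl10 66.8 ± 25.7 CPM in KO and 81.5 ± 14.5 CPM in wild-type ILC3s and Rps4x 10.6 ± 4.51 CPM in KO and 11.4 ± 3.49 CPM in wild-type ILC3s.

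No member passed the test between genotypes. By edgeR's quasi-likelihood test, adjusted over the 8878 genes that passed the filter, 0 of 82 members were called at an adjusted p of 0.05, in either direction, as for all genes (0% higher in KO and 0% lower). The same edgeR test did not call Zbtb46 itself (log2 fold -4.31, adjusted p 0.885), so 0 calls do not show that levels were equal. At an unadjusted p of 0.05, 0 members were called, where 4.1% of all genes were. DESeq2 called 0 members, where it called 3.22% of all genes, with a smallest adjusted p of 0.12. At an unadjusted p of 0.05 it had 3 of 83 members, against 10.8% of all genes. The groups failed to overlap in 0 members, against 4.36% of all genes (2.26% higher and 2.1% lower in KO).

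The fitted differences of the set, none of them significant, lay mostly on the low side. Of 82 members, 67 (81.7%) were lower and 15 higher in KO than in wild-type ILC3s, with a median log2 fold of -0.18 and quartiles of -0.41 and -0.07. Over all tested genes 49.1% were lower, and the median was 0.02. Genes of the large subunit were lower for 42 of 50 members (median -0.27), and those of the small subunit for 25 of 32 (median -0.11). Among the 33 members with at least 100 CPM, 26 (78.8%) were lower, with folds between -0.64 and 0.41, a median of -0.15 and a median SE of 0.29. Of the 1828 genes at that level, 55.7% were lower and the median was -0.06. Members under 100 CPM had a median SE of 1.06, and all 8 members with a log2 fold past 1 in size stood among them. The lean to the low side moved with single libraries. The median lay further below 0 without wild-type replicate 4, with 71 of 82 lower (median -0.31), KO replicate 7 (67, median -0.26), wild-type replicate 2 (65, median -0.23), KO replicate 8 (69, median -0.22) or KO replicate 5 (64, median -0.20). It lay nearer 0 without wild-type replicate 1 (54, median -0.15). Without wild-type replicate 3, 51 of 82 members were lower (median -0.07), without KO replicate 6, 58 were (median -0.07), and without both wild-type replicate 1 and KO replicate 6, a choice made after the data were seen, 45 were (median -0.04). With no scaling factors 53 were lower (median -0.09, where that of all genes was 0.11).

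**Figure D4:**
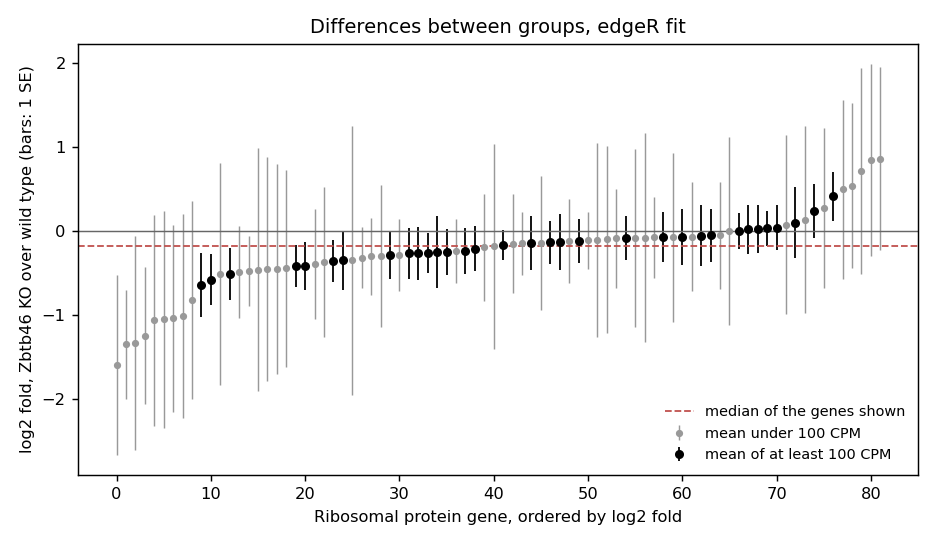
Log2 fold of Zbtb46 KO over wild type for the 82 tested members, ordered by value (edgeR, 4 libraries each), with bars of 1 SE, black for members with at least 100 CPM and grey for the others, and a dashed line at the median of -0.18. Most points lie just below 0 and 0 of 82 pass the adjusted test.

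Rpl37, of the large subunit, followed Rpl39l and Rpl22l1 in unadjusted p among members lower in KO. Rpl37 had 184, 194, 221 and 233 CPM in KO libraries, against 336, 255, 327 and 199 CPM in wild-type ones. All 4 KO values lay below wild-type replicates 1, 2 and 3, and wild-type replicate 4 gave the overlap (log2 fold -0.42, SE 0.25). In the other direction, Rps26, a small-subunit protein that lies beside the mRNA exit channel and contacts the sequence before the start codon, had 161, 150.2, 229 and 169 CPM in KO libraries, against 164, 131, 143 and 96.6 CPM in wild-type ones. Its KO values were all above wild-type replicates 2, 3 and 4, and wild-type replicate 1 lay among them (log2 fold 0.41, SE 0.29, unadjusted p 0.184, edgeR adjusted p 1.00). Rpl36a, Rps6, Rpl11 and Rpl27a were also among the 6 with the smallest p on the high side, with log2 folds of 0.84, 0.86, 0.71 and 0.54 and SEs of 1.15, 1.10, 1.23 and 0.98, so each error exceeded its fold.

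The 8 members with a log2 fold past 1 in size were all lower in KO and all had means under 100 CPM. Among them were Rpl39l, Rps27 and Rpl5, described by the naming rule, and Rpl7a, Rpl24, Rpl17 and Rpl21, named after their values were seen. Without wild-type replicate 1 the log2 fold of Rps27 was -0.51 and that of Rpl39l -0.99, and the fold of Rpl5 was -0.68 without KO replicate 6 and -1.86 without KO replicate 8. Rpl7a had 4.82, 7.75, 13.7 and 5.94 CPM in KO libraries, against 30.9, 43.8, 10.7 and 12.4 CPM in wild-type ones. Rpl24 had 2.57, 0.418, 5.91 and 2.47 CPM in KO libraries, against 3.48, 7.98, 5.23 and 12.1 CPM in wild-type ones. The groups overlapped in both, and single libraries differed several-fold within a genotype, with log2 fold -1.60, SE 1.07 for Rpl7a and log2 fold -1.34, SE 1.27 for Rpl24. The share of coding stretches found in no other gene was 6.65% for Rpl7a, 0.706% for Rpl24, 0% for Rpl17 and 0% for Rpl21.

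Abundant members outside the naming rule, chosen for their level after values were seen, had smaller errors and small folds. In the large subunit, Rpl4 had 328, 162, 362 and 166 CPM in KO libraries, against 130.1, 328, 507 and 250.3 CPM in wild-type ones. Wild-type replicates 1 and 3 gave the lowest and highest wild-type values of Rpl4, the reverse of the common pattern for replicate 1. Rpl8 had 256, 119, 464 and 272 CPM in KO libraries, against 358, 271, 279 and 131 CPM in wild-type ones, with KO replicate 6 and wild-type replicate 4 lowest in their groups. Rpl26, near the exit of the peptide tunnel, averaged 215 ± 22.3 CPM in KO and 259 ± 53.7 CPM in wild-type ILC3s (log2 fold -0.26, SE 0.24). In the small subunit, Rps20 averaged 185 ± 21.3 CPM in KO and 214 ± 54.6 CPM in wild-type ILC3s (log2 fold -0.22, SE 0.27), Rps15 187 ± 53.2 CPM in KO and 205 ± 65.1 CPM in wild-type ILC3s (log2 fold -0.13, SE 0.33), and Rps9 167 ± 49.2 CPM in KO and 201 ± 37.3 CPM in wild-type ILC3s (log2 fold -0.27, SE 0.31). The groups overlapped for each of these genes.

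The stalk of the large subunit, built from Rplp0 and the acidic proteins Rplp1 and Rplp2, recruits elongation factors to the ribosome. Rplp0 had 296, 218, 185 and 272 CPM in KO libraries, against 246, 279, 264 and 157 CPM in wild-type ones. Rplp1 had 362, 321, 444 and 373 CPM in KO libraries, against 555, 305, 479 and 312 CPM in wild-type ones. The groups overlapped for both, and log2 folds were 0.04 (SE 0.27) for Rplp0, -0.14 (SE 0.25) for Rplp1 and 0.02 (SE 0.30) for Rplp2, which averaged 189 ± 56.8 CPM in KO and 187 ± 33.4 CPM in wild-type ILC3s.

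None of the other fixed members, some of which have known roles outside the ribosome, passed the test between genotypes. Rpl5 and Rpl11 bind Mdm2 when ribosome assembly is disturbed and thereby stabilise p53. Rpl5 averaged 3.76 ± 3.43 CPM in KO and 7.81 ± 3.07 CPM in wild-type ILC3s (log2 fold -1.05, SE 1.29), and Rpl11 4.23 ± 3.27 CPM in KO and 2.59 ± 1.05 CPM in wild-type ILC3s. Rps6, the substrate of the S6 kinases, had 7.99, 27.5, 19.6 and 23.8 CPM in KO libraries, against 22.9, 8.40, 3.96 and 8.14 CPM in wild-type ones, which overlapped. Rps3, which also acts in DNA repair and with NF-kB, averaged 346 ± 72.0 CPM in KO and 408 ± 117 CPM in wild-type ILC3s (log2 fold -0.24, SE 0.28). Rpl13a, known in human myeloid cells for silencing inflammatory mRNAs, averaged 168 ± 30.7 CPM in KO and 186 ± 63.1 CPM in wild-type ILC3s (log2 fold -0.15, SE 0.32). Rpl38, needed in mouse embryos for translation of Hox mRNAs, averaged 103 ± 4.87 CPM in KO and 107 ± 24.5 CPM in wild-type ILC3s, and Rps19, mutated in human Diamond-Blackfan anaemia, 311 ± 76.2 CPM in KO and 331 ± 81.0 CPM in wild-type ILC3s. Rpsa, also known as the laminin receptor, averaged 7.24 ± 3.30 CPM in KO and 7.81 ± 1.42 CPM in wild-type ILC3s with a SE of the log2 fold of 1.16, and Rpl32 216 ± 63.7 CPM in KO and 276 ± 105 CPM in wild-type ILC3s (log2 fold -0.35, SE 0.35).

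The abundant members moved together from mouse to mouse within each genotype. For the 33 members with at least 100 CPM, each value was set against the mean of its own group as log2(CPM + 0.5). Above their group mean were 10 members in KO replicate 5, 3 in replicate 6, 32 in replicate 7 and 24 in replicate 8, and 29 in wild-type replicate 1, 9 in replicate 2, 33 in replicate 3 and 1 in replicate 4. Median deviations were -0.12, -0.23, 0.27, 0.07 in KO replicates 5 to 8 and 0.25, -0.11, 0.28, -0.39 in wild-type replicates 1 to 4. KO replicate 7 held the highest KO value for 24 of the 33 genes, and wild-type replicates 3 and 1 held the highest wild-type value for 17 and 13. Among all genes with at least 100 CPM, the share below the group mean ran only from 41.0% to 52.0% across libraries. The members also varied less than other genes of that level, with a median coefficient of variation within groups of 22.1% for the members and 32.7% for all such genes. Mitochondrial ribosomal protein genes summed to 10033, 7964, 11150 and 10412 CPM of the library total in KO libraries. In wild-type ones they summed to 8885, 8004, 9825 and 6534 CPM. Their sum was also lowest in KO replicate 6 and wild-type replicate 4, so these low libraries were not particular to the cytosolic set.

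**Figure D5:**
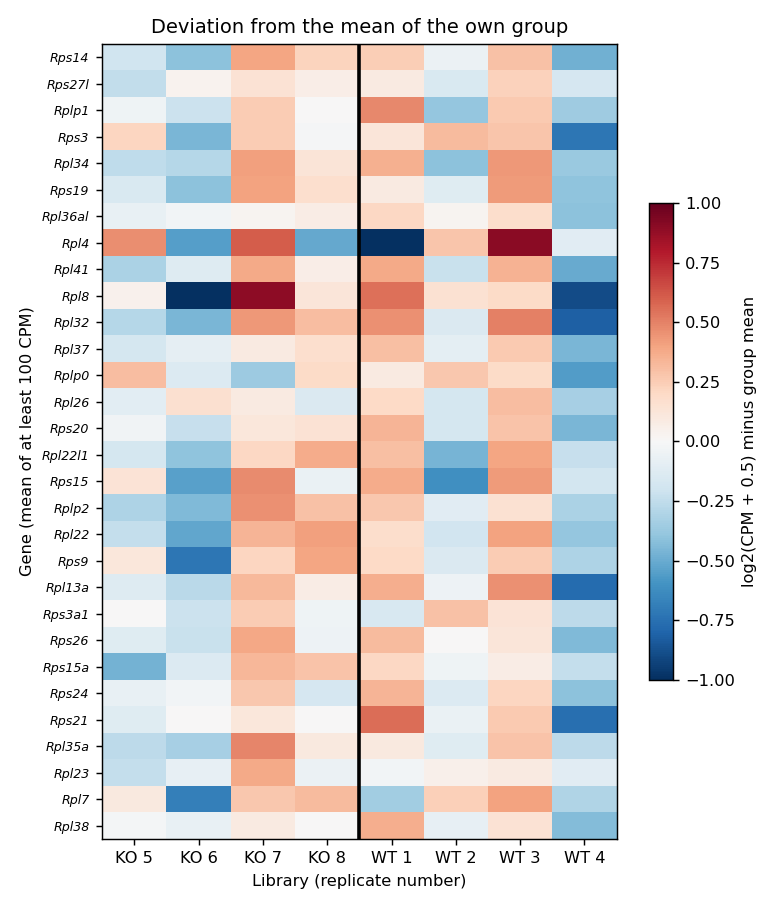
Deviation from the mean of the own group, as log2(CPM + 0.5), for 30 of the 33 members with at least 100 CPM (1 row per gene) in the 4 Zbtb46 KO and the 4 wild-type libraries (columns), with the colour scale ending at 1 in size. KO replicate 7 and wild-type replicates 1 and 3 are mostly red (32, 29 and 33 of all 33 members above the mean), and KO replicate 6 and wild-type replicate 4 mostly blue (3 and 1 above).

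Start sites were searched for short words known from ribosomal protein promoters, which the choice by symbol did not use. RefSeq promoters were matched for 65 of 85 members, beside 27025 for all genes, in GRCm38.p6. The start windows below run from 35 bases before to 25 after the start listed in the RefSeq promoter table, which can lie inside the span of a gene with several starts, and are shown for 4 members with and without the pyrimidine run CTTTCC (capitals). They are Rpl38, Rpl22 and Rpl39l, which hold it, and Rps27l, which does not.
Rpl38 (chr11:114668545-114668604, plus strand): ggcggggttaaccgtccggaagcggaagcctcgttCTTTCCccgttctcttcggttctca
Rpl22 (chr4:152325691-152325750, plus strand): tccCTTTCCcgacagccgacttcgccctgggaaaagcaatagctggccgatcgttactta
Rpl39l (chr16:10170193-10170252, plus strand): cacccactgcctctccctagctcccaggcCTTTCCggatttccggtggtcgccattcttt
Rps27l (chr9:66946051-66946110, plus strand): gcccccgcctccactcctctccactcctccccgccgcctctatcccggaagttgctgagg

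Most members lacked both pyrimidine words searched in the window around the listed start. In that window and on the sense strand, CTTTCC was found in 11 of 65 members (16.9%) and in 2.88% of all promoters, and the related CTCTTT in 9 (13.8%) and 2.38%. The 2 words can overlap in the same run of bases. Other pyrimidine runs were not searched, and a word in the window can lie before the listed start, as in Rpl22 and Rpl39l. These counts therefore do not show how many members hold a TOP motif. In the whole 300 bases and on either strand, CCGGAAG, the core of the ETS and GABP site, was found in 38.5% of members and 9.12% of all promoters. CTTTCC on either strand in 300 bases was found in 47.7% of members and 26.3% of all promoters, and GGGCGG, the core of the Sp1 site, in 60% and 35.9%. The shares of members and of all promoters were not tested against each other. These matches describe letters in the window only, and the listed start can differ from the first base used in ILC3s.

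Genes that build, regulate and use ribosomes gave 0 called by the edgeR test (0% of all genes) in every list. Translation initiation factors were lower in KO for 20 and higher for 17 of 37 tested (median log2 fold -0.23). Elongation and termination factors were split 6 and 6 (median 0.08), ribosome biogenesis factors were lower for 25 of 46 (median -0.11) and genes of RNA polymerase I for 10 of 16 (median -0.06). Other mRNAs with a TOP motif were lower for 11 of 18 (median -0.25), and mTORC1, S6 kinase, Larp1 and Myc genes for 10 of 17 (median -0.12). Mitochondrial ribosomal proteins, built for the organelle's own ribosome, were higher for 42 of 77 (median 0.06), and genes of the p53 response for 5 of 7 (median 0.70). Eif3a, the largest subunit of initiation factor eIF3, averaged 359.8 ± 72.1 CPM in KO and 556 ± 138 CPM in wild-type ILC3s and its groups did not overlap. Npm1, the nucleolar chaperone nucleophosmin, averaged 205 ± 21.9 CPM in KO and 297 ± 57.6 CPM in wild-type ILC3s. Lsg1, a GTPase that finishes the large subunit in the cytoplasm, averaged 14.4 ± 1.36 CPM in KO and 59.1 ± 30.4 CPM in wild-type ILC3s, the groups did not overlap, and the edgeR adjusted p was 0.885, against 0.000751 by DESeq2. Eif4ebp1, the mTORC1 target that blocks the cap-binding protein eIF4E, had 1.34, 28.7, 15.2 and 9.29 CPM in KO libraries, against 0.0391, 0, 0 and 0.0786 CPM in wild-type ones. Every wild-type value of Eif4ebp1 was below the limit that a count of 0 allows, so no fold is given, and the edgeR adjusted p was 0.515, against 7.06e-08 by DESeq2. DESeq2 called 6 genes of these lists in all (3.22% of all genes), with Lsg1 lower and Eif4ebp1 higher in KO. The others, Eif2b3, Nop2, Grwd1 and Rps6ka2, were all higher in KO. Of these, Nop2 had 2.45, 3.72, 7.92 and 6.76 CPM in KO libraries, against 0, 0, 0 and 0.275 CPM in wild-type ones. Its wild-type level was thus near the limit, and its edgeR adjusted p was 0.852. Rps6kb1, which encodes the S6 kinase of Rps6, had 62.8 ± 44.2 CPM in KO and 152 ± 44.9 CPM in wild-type ILC3s, with overlap. Larp4b, of the same list, averaged 151 ± 25.3 CPM in KO and 83.7 ± 21.9 CPM in wild-type ILC3s, without overlap. Eef1e1, of the elongation list, averaged 186 ± 95.6 CPM in KO and 104 ± 37.5 CPM in wild-type ILC3s, with overlap. Among mitochondrial ribosomal proteins, 3 were higher in KO without overlap, among them Mrpl18 and Mrpl53, and 2 were lower. Of all tested genes, 4.36% did not overlap. The 13 tested rows of ribosomal protein pseudogenes were lower for 9 (median -0.11), and all such rows together summed to 34.00, 119, 44.8 and 28.1 CPM in KO libraries, against 33.0, 74.4, 42.0 and 21.2 CPM in wild-type ones, highest in KO replicate 6.

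Markers of other cells differed between libraries, and of their sums only that of the ILC2 list did not overlap between genotypes. ILC2 markers summed to 267 to 444 CPM in KO and 47.7 to 232 CPM in wild-type libraries, with no overlap, and 3 of the 7 were tested, 1 higher and 2 lower in KO. Most of that sum was Areg, the growth factor amphiregulin, which had 274, 272, 383 and 409 CPM in KO libraries, against 45.8, 197, 131 and 211 CPM in wild-type ones and did not overlap. NK cell and ILC1 markers summed to 185 to 658 CPM in KO and 50.2 to 233 CPM in wild-type libraries (2 higher and 2 lower of 4 tested, of 9). Much of that sum in KO libraries was Ncr1, at 447, 148, 151 and 270 CPM, against 0.0391, 41.1, 67.4 and 198 CPM in wild-type ones. Dendritic cell markers summed to 574 to 1140.5 CPM in KO and 475 to 797 CPM in wild-type libraries, with all 4 tested of 10 higher in KO, and 2 at 0 in every library. Among them Irf8, a transcription factor of dendritic cells, had 13.6, 16.6, 7.63 and 25.7 CPM in KO libraries, against 5.75, 0.331, 0.937 and 0.0786 CPM in wild-type ones and did not overlap. Ccr7 alone had 922, 444, 392 and 861 CPM in KO libraries, against 675, 430, 365 and 479 CPM in wild-type ones, with overlap. It held much of the dendritic cell sum. Macrophage and neutrophil markers summed to 13.3 to 817 CPM in KO and 1.74 to 43.8 CPM in wild-type libraries, and B and plasma cell markers to 20.8 to 98.5 CPM in KO and 8.43 to 137 CPM in wild-type libraries. Epithelial markers summed to 0.817 to 28.00 CPM in KO and 1.58 to 1314 CPM in wild-type libraries, stromal and endothelial ones to 74.9 to 545 CPM in KO and 63.9 to 1205 CPM in wild-type libraries, and T cell ones to 114 to 266 CPM in KO and 119 to 289 CPM in wild-type libraries. By the edgeR test 0 genes of these lists were called, and the part of these cells in the ribosomal protein values was not tested.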

How the data were processed

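RNA from sorted CCR6+ ILC3s was made into libraries with a Clontech SMARTer Ultra Low Input kit, per the labels' protocols. CASAVA 1.8.2, STAR 2.3.0 and the build mm10 are listed in the submitters' processing notes, while the counter, whether strand was used and how multi-matching reads were treated were not stated. The deposited values are raw read counts per Entrez gene ID, with no normalization by the authors per the values, in 27179 rows and 8 libraries. Symbols, coordinates and biotypes came from RefSeq annotation (GRCm38.p6, which is mm10), and the 1904 rows without a symbol held 0.303% of counts. Coding sequences came from GENCODE M21. Groups were taken from sample titles. Library totals of 25328231 to 33760743 counts set the counting precision, but the kit amplifies cDNA, so limits cover counting error only.

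From the counts, edgeR 4.0.16 in R 4.3.3 fitted all 8 libraries by group with TMM factors, filterByExpr and the quasi-likelihood test, with p-values adjusted by Benjamini-Hochberg over all 8878 genes kept. This step was tested on simulated counts. CPM of single genes uses TMM-scaled library sizes, and sums use library totals. Alternatives were DESeq2 1.42.0, other scaling and filters, and each library left out, and the choice to leave out replicates 1 and 6 together, and the sum over members with at least 20% unique sequence, were added after the data were seen. Members named were the 6 with the highest level per coding kb, the 6 per direction with the smallest p, 13 fixed members, and paralogs with their parents, and lists gave up to 2 genes with the smallest p. Not all of these list genes are described, and a few members are counted in all sums and counts but not reported here by name. Members and lists were chosen with earlier results of these data known.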

Additional observations from a re-analysis of the deposited data

Results flagged for a closer look

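Among 82 groups of 4 libraries examined for 1 value far from the other 3, 6 stood out, where chance gives about 1 in 20, or 4.1. Rps27 had 97.7 CPM in wild-type replicate 1, with 21.1 to 33.4 CPM in the other wild-type libraries. Rpl3 had 27.5 CPM in KO replicate 5, with 11.5 to 14.2 CPM in the other KO libraries. Rpl10 had 60.04 CPM in wild-type replicate 3, with 86.0 to 90.6 CPM in the other wild-type libraries. Rpl10l had 0.0626 CPM in KO replicate 7 and 0 CPM in the other KO libraries, and Rpl3l had 0.0285 CPM in KO replicate 5 and 0.0414 CPM in wild-type replicate 2, with 0 CPM in the other libraries of each group. All Rpl10l and Rpl3l values lay below the limit that a count of 0 allows. With the rest of a group at 0, any value above 0 stands out. The rate of 1 in 20 therefore does not apply to these flags, and 6 against 4.1 is no measure of an excess.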

How the results depend on the processing

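No paired analysis was possible because replicate numbers run from 1 to 8 and are not shared between the genotypes. Called ribosomal protein genes stayed at 0 under all alternatives, while the count over all genes was 0 with the main settings, 2 with no filter on low counts, 373 with DESeq2 (239 higher and 134 lower in KO), and 0 to 2 with each library left out, the 2 without replicate 6. The number of members whose groups did not overlap ran from 0 to 4 with each library left out (4 without replicate 4 or 7), where 6.81% to 8.57% of all genes did not overlap, and was 4 without replicates 1 and 6, against 14.2% of all genes. The median log2 fold of the members ran from -0.31 to -0.07 with each library left out, and the difference of their summed CPM from -1845 to -89.7, with 646 CPM without replicates 1 and 6. Signs of folds near 0 turned. With no scaling factors they were 0.00208 for Rpl3, 0.089 for Rpl36al, 0.033 for Rpl38, 0.0800 for Rpl39, 0.0497 for Rpl7, 0.0115 for Rps19, 0.0182 for Rps4x and 0.00641 for Rpsa. With no filter they were 0.0244 for Rpl36al and 0.0250 for Rpl39, and with at least 5 CPM in 4 libraries 0.00536 and 0.00155. Without replicates 1 and 6 they were 0.0451 for Rpl13a, 0.29 for Rpl3, 0.0805 for Rpl36al, 0.10 for Rpl38, 0.0181 for Rpl7, 0.10 for Rplp1, 0.0538 for Rps19 and 0.11 for Rpsa. With each library left out, folds ran from -0.35 to 0.0194 for Rpl13a, -0.45 to 0.23 for Rpl3, -0.12 to 0.0690 for Rpl36al, -0.18 to 0.0721 for Rpl38, -0.15 to 0.14 for Rpl39, -0.17 to 0.13 for Rpl7, -0.12 to 0.16 for Rplp0, -0.26 to 0.0316 for Rplp1, -0.14 to 0.14 for Rplp2, -0.23 to 0.0862 for Rps19, -0.30 to 0.16 for Rps4x and -0.27 to 0.17 for Rpsa. The cause was not tested.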
